A study of Sus scrofa with 6 samples.

Results

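Left atria of 4 pigs with a surgical mitral valve lesion were compared with left atria of 2 control pigs, 1 microarray per animal. The 4 lesioned animals were taken by their titles: MR1 and MR2, which had the lesion alone, and MRV1 and MRV2, which had the lesion and the angiotensin receptor blocker valsartan. The controls were NC1 and NC2, so all 6 arrays of the series entered the comparison. All 23999 probe sets other than array controls, of 24123 in the table, belonged to it, and 14400 were bright enough to be tested. The question was which transcripts differed from control in lesioned atria whether or not valsartan was given, within the wider aim in the labels of finding how the atrial myocardium differs with and without mitral regurgitation.

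All animals were male and 18 months of age, and the NC pigs are described only as age-matched normal controls. In MR and MRV pigs, of the Lanyu miniature breed, mitral regurgitation was made by a hole of 2.8 mm in the posterior mitral leaflet, in its middle scallop, and the atria were taken 12 months after surgery. MRV pigs also received valsartan at 3.43 mg per kg per day, begun 1 week before surgery and then given daily. No operation is recorded for the NC pigs, so the lesion and the surgery cannot be told apart, and with 2 pigs per treatment the precision is set by the number of animals.

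Mitral regurgitation sends blood back into the left atrium at each heartbeat, so the atrium works under a raised volume load, dilates and becomes prone to fibrillation and fibrosis. Stretched atrial muscle is known to release natriuretic peptides, to re-use genes of heart growth and to shift its fuel use between fatty acids, glucose and amino acids. Angiotensin II, acting through the type 1 receptor that valsartan blocks, is among the signals known to drive that growth and the scarring.

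The values are array intensities in arbitrary units, and log2 differences were taken from log2(intensity + 16), which understates the change of dim probe sets. The arrays had like medians, from 90.2 to 93.4, and NC1 correlated least with the others (mean Pearson r over probe sets 0.963, against 0.972 to 0.976 for the other 5 arrays). The atrial markers were bright on every array: NPPA, the atrial natriuretic peptide, read 18414 to 20170, the atrial light chain MYL4 21034 to 21842, and sarcolipin, SLN, 5369 to 10033. The ratio of 3' to 5' actin control signal, a sign of RNA integrity, was 1.61 and 1.91 (NC), 1.44 and 1.70 (MR) and 2.30 and 1.87 (MRV), and the 28S ribosomal RNA control read 117 and 468.4 (NC), 187.4 and 279.9 (MR) and 341 and 558.8 (MRV). The part of these differences between arrays in the results was not tested beyond the fits that carry them as covariates, which are given where they change a call. A lower signal in whole atrial tissue can come from fewer cells of a type or from less RNA per cell, and these cannot be told apart here.

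Of the 14400 probe sets tested, 1 passed an adjusted p of 0.05 in lesioned against NC atria (0.00694%, limma with Benjamini-Hochberg adjustment): that of asparagine synthetase, ASNS, which fell. The next smallest adjusted p was 0.809. Without adjustment, 438 probe sets (3.04%) had a p below 0.05, 149 higher (1.03%) and 289 lower (2.01%) in lesioned atria. That share is below the 0.05 which such a limit passes on average when no groups differ. On 1361 probe sets (9.45%) all 4 lesioned arrays lay on one side of both NC arrays, 624 above (4.33%) and 737 below (5.12%). With 4 arrays against 2, such separation also arises without any group difference, on average at a larger share than the 9.45% seen. By itself it therefore does not mark a change, and the count is no excess. The groups were at least 2-fold apart without overlap on 19 probe sets (0.132%), 6 higher (0.0417%) and 13 lower (0.0903%). Outside ASNS, the values below are therefore a description of 6 animals.

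A stricter view asked for no overlap and a log2 difference of at least 0.5 the same way in both MR and MRV, each against the same NC arrays. This set held 86 probe sets, 25 higher (0.174%) and 61 lower (0.424%). The set depended on the controls: without NC1 it held 202 probe sets and without NC2 760. A single array is easier to lie beyond than a pair, but this holds for both counts. NC1, the control kept for the larger count, correlated least with the other arrays (mean r 0.963, against 0.974 for NC2). Why the counts differed from each other was not tested. Of the 86, 6 had an unadjusted limma p below 0.05 for MRV against MR, beside 7.28% of all probe sets tested. Of the same 86, 38 carried 1 gene symbol, from 34 different genes. The named ones that were lower, 33 probe sets, included enzymes of amino acid and glycogen metabolism, immediate early genes and a neurotrophin. The named ones that were higher, 5 probe sets, belonged to CCNG2, ZNF232, SERPINE2, RPL23 and the uncharacterised LOC100522115.

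ASNS makes asparagine from aspartate with glutamine as the nitrogen donor, and is a classic target of the transcription factor ATF4 when amino acids are short. Its probe set read 778.8 and 852.3 (NC), 193 and 172.8 (MR) and 213.7 and 236.8 (MRV). All 4 lesioned atria thus lay far below both controls, and the MR and MRV values did not overlap each other either. Mean intensity was 816 ± 52.0 in NC (SD, n = 2) and 204 ± 27.5 in lesioned atria (SD, n = 4). On the log2(intensity + 16) scale the difference was -1.92 (SE 0.13, limma adjusted p = 0.0393), which is 3.80-fold lower on that scale. Against NC separately, in a fit with 3 group means, the difference was -2.06 in MR (SE 0.12, limma adjusted p = 0.0466) and -1.79 in MRV (SE 0.12, limma adjusted p = 0.0649). MRV minus MR was 0.28 (SE 0.12, limma adjusted p = 0.702). The difference was -1.72 or lower in each of 15 alternative fits, but the call stood in only 4 of them: leaving out any 1 of the 6 arrays ended it (adjusted p 0.0591 to 0.301), as did adding the actin ratio as a covariate (0.0861) and testing all probe sets without the filter on dim ones (0.111).

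**Figure D1:**
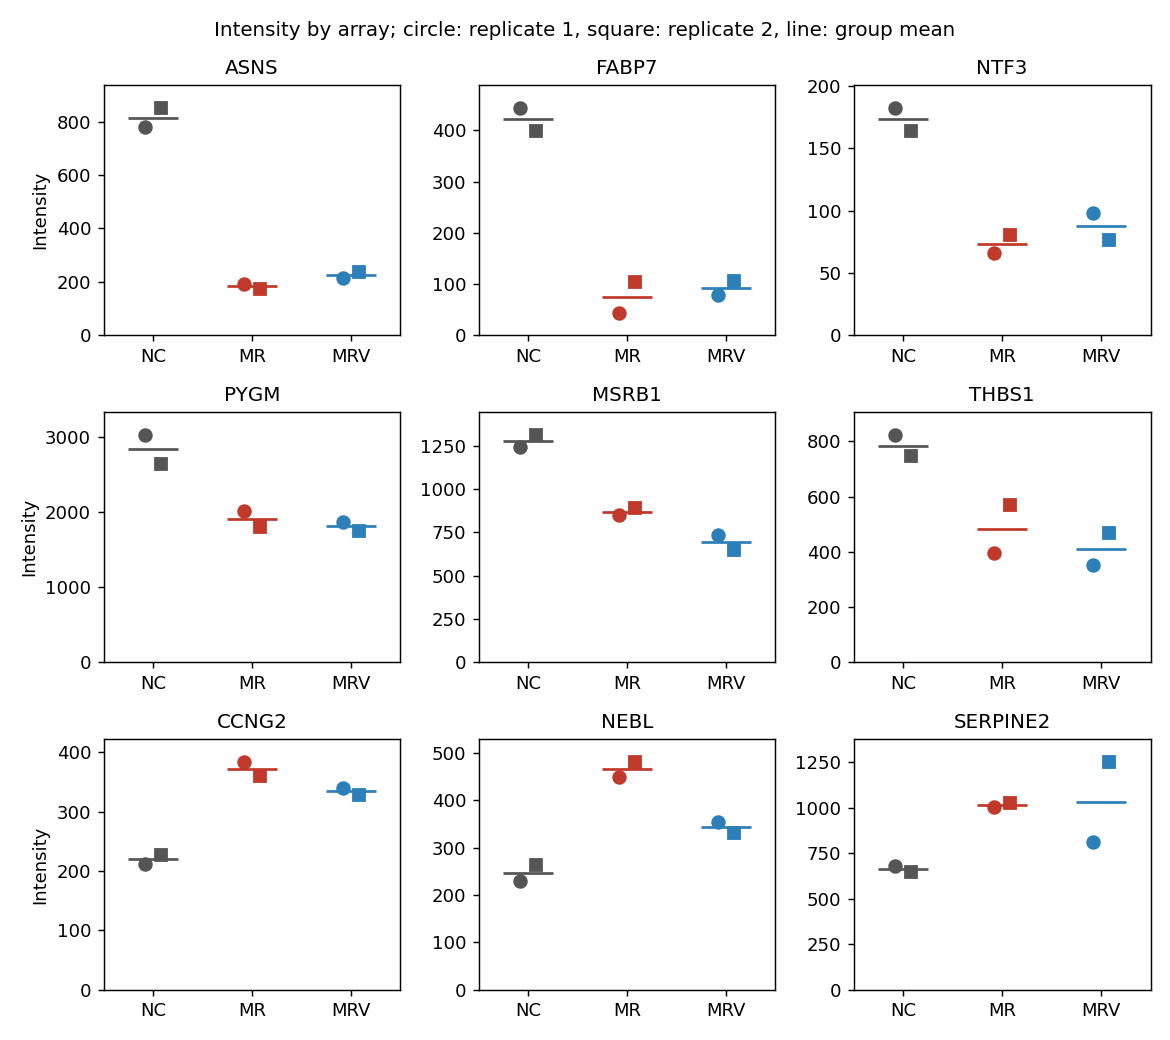
Intensity on each of the 6 arrays (arbitrary units) for 9 genes that differed between lesioned and NC atria without overlap. Each point is 1 animal and the bars are group means. ASNS read 778.8 and 852.3 in NC and 172.8 to 236.8 in the 4 lesioned atria, while CCNG2, NEBL and SERPINE2 read higher in all 4.

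The list of amino acid response genes, most of them ATF4 targets, had 17 measured members. ASNS was the only one called, and the only one of all genes (0.0185%). Of the 17, 7 were higher and 10 lower in lesioned atria, with a median log2 difference of -0.06, beside -0.01 over all 5408 genes tested, of which 2609 (48.2%) were higher. Without overlap, 1 was higher and 3 were lower, beside 4.23% higher and 5.82% lower of all genes. The 1 above both controls was ALDH18A1, which starts proline synthesis: it read 490.8 and 498.7 in NC and 578.5 to 694.1 in lesioned atria (log2 0.33, SE 0.10).

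The other 2 below both controls were ATF3 and PSAT1. ATF3, a stress-induced transcription factor, read 1099.5 and 408.8 (NC), 264.7 and 356.8 (MR) and 89.1 and 49 (MRV). The controls differed from each other by more than MR did from NC2, and the MRV atria were the lowest (log2 -1.09 in MR and -3.06 in MRV). PSAT1, of serine synthesis, read 570.6 and 296.3 in NC and 217.4 to 287.9 in lesioned atria (log2 -0.63, SE 0.25), so that NC2 lay close above the lesioned range. ATF4 itself (log2 -0.05) and DDIT3, the stress factor CHOP (0.14), differed little. The list's median was 0.01 without NC1 and -0.16 without NC2.

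Glutamine synthetase, GLUL, which makes the nitrogen donor of the ASNS reaction, was also in the set lower in both lesioned groups. It read 1507.2 and 1643.2 (NC), 860.5 and 1194.1 (MR) and 698.9 and 872.6 (MRV). All 4 lesioned values lay below both controls (log2 -0.81, SE 0.20, limma adjusted p = 0.9997). A second probe set gave -0.98 but overlapped, while another gave 0.00, so the probe sets of this gene disagree.

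Besides ASNS, 14 genes were named by the smallest p among those at least log2 0.5 lower in lesioned atria without overlap and lower in both MR and MRV. The largest difference was that of FABP7, a fatty acid binding protein best known from glia. It read 444.4 and 399.3 (NC), 43.3 and 104.9 (MR) and 78.6 and 106.8 (MRV). Means were 422 ± 31.9 in NC (SD, n = 2) and 83.4 ± 29.7 in lesioned atria (SD, n = 4), with no overlap (log2 -2.19, SE 0.30, limma adjusted p = 0.809). The log2 difference was -2.37 in MR and -2.02 in MRV.

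NTF3, neurotrophin-3, a growth factor for sensory and sympathetic neurons, read 182.5 and 163.9 in NC and 65.7, 80.7, 98.3 and 76.3 in MR1, MR2, MRV1 and MRV2. Every lesioned value was below 100 and both controls were above it, at 173 ± 13.2 (SD, n = 2) against 80.2 ± 13.6 (SD, n = 4), with a limma adjusted p of 0.809 (log2 -0.98, SE 0.14). The difference was -1.09 in MR and -0.88 in MRV. FABP7 is best known from glia and NTF3 acts on neurons, so the markers of Schwann cells and neurons are set beside them here. Of 9 measured Schwann cell and neuron markers, 3 were higher and 6 lower, none without overlap. Their median was -0.26 over lesioned atria, which stood for neither group (-0.04 in MR and -0.90 in MRV), and 0.11 without NC1. The summed intensity was 13980.5 in NC1, 14027.4 in NC2 and 11414.1 to 15505.3 in lesioned atria, most of it from CRYAB (9405.7 to 12200.8), which heart muscle also makes. SOX10, which defines glia, read 55.3 and 66.9 in NC and 60.7 to 78.4 in lesioned atria.

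Within that list the neuronal genes were high on NC1 alone. SNAP25, of the synaptic vesicle machinery, read 428 in NC1, 39.3 in NC2, 54.8 and 113.2 in MR, and 16.8 and 17.8 in MRV. STMN2, a growth cone protein, read 331.4 and 20.9 (NC), 49.2 and 73.1 (MR) and 9.3 and 10 (MRV). Both were thus low in NC2, unlike FABP7 and NTF3, and without NC1 their log2 differences turned positive (0.03 and 0.26). Both genes read below the brightness limit of 61.4 on NC2, MR1 and both MRV arrays. The part of nerve tissue content in the FABP7 and NTF3 values was not tested.

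PYGM, the muscle glycogen phosphorylase that frees glucose units from stored glycogen, was the clearest of the energy genes. It read 3034.7 and 2651.4 (NC), 2024.1 and 1811 (MR) and 1877.4 and 1753.1 (MRV). The lowest control was above the highest lesioned atrium, and the spread within groups was small (log2 -0.60, SE 0.10, limma adjusted p = 0.860). A second PYGM probe set read 2341.7 and 2764.8 in NC and 1684.7 to 1809.3 in lesioned atria, also without overlap (log2 -0.53, SE 0.10). Of its other, dimmer probe sets, 1 gave -0.26 with overlap and 1 gave -0.20 without overlap. PYGM, by its brightest probe set, was lower by a like amount in MR (-0.56) and MRV (-0.64).

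The other glycolysis and glycogen genes differed by less. Of 23 measured, 6 were higher and 17 lower, 4 of the latter without overlap (beside 5.82% of all genes) and none higher without overlap (4.23%). The median was -0.09 (-0.01 in MR and -0.16 in MRV), from -0.02 without NC1 to -0.20 without NC2. GPI, glucose-6-phosphate isomerase, read 4611.5 and 4617.7 in NC and 4068.8 to 4251.9 in lesioned atria (log2 -0.13, SE 0.08). ENO3, the muscle enolase, read 7131.6 and 7077.4 in NC and 6229.3 to 6824.7 in lesioned atria (log2 -0.12, SE 0.08).

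Genes of fatty acid uptake and oxidation had a median of -0.08 (-0.06 in MR and -0.11 in MRV). Of 32 measured, 9 were higher and 23 lower, and without overlap 2 were higher and 4 lower, beside 4.23% and 5.82% of all genes. RXRG, a nuclear receptor that partners PPARs, read 163.4 and 149.8 in NC and 97.8 to 119.3 in lesioned atria (log2 -0.49, SE 0.11). ACADVL, the first enzyme of mitochondrial oxidation of long chains, read 1965.4 and 2198 in NC and 1638.8 to 1793.5 in lesioned atria (log2 -0.29, SE 0.09). ACSL1, which activates long-chain fatty acids, was lower too (log2 -0.39, SE 0.15). HADHB, a subunit of the trifunctional protein of the same pathway, lay the other way, at 5038.1 and 4706 in NC and 5765.7 to 7065.5 in lesioned atria (log2 0.34, SE 0.11).

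ACSL6, another acyl-CoA synthetase, was more than 2-fold lower. It read 1595.7 and 974 (NC), 512.9 and 546 (MR) and 716.5 and 428.9 (MRV) (log2 -1.18, SE 0.25), and a second probe set gave -0.98. Both probe sets had all 4 lesioned atria below both controls, although the controls themselves were well apart. Oxidative phosphorylation genes (37 measured, 9 higher and 28 lower, 6 lower without overlap, beside 5.82% of all genes) had a median of -0.04, which was 0.00 without NC2 and stood at 0.00 in MR and -0.06 in MRV. Citric acid cycle genes (27 measured, 9 higher and 18 lower, 6 lower without overlap, beside the same 5.82%) had a median of -0.05, at 0.00 in MR and -0.05 in MRV. In both lists no member was higher without overlap, and none passed the adjusted test.

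MSRB1, a selenoprotein that repairs oxidised methionine, read 1244.7 and 1312.1 (NC), 847.8 and 890.1 (MR) and 735.1 and 650.8 (MRV). Both lesioned groups lay below NC, and MRV lay below MR (log2 -0.71, SE 0.14, lesioned against NC; -0.55 in MR and -0.87 in MRV). The difference between MRV and MR did not pass (log2 -0.32, SE 0.11, limma adjusted p = 0.654). Antioxidant genes as a list had 12 higher and 23 lower of 35, with a median of -0.04, and 0.04 without NC1.

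Without overlap, 2 of the 35 were higher and 3 lower, beside 4.23% higher and 5.82% lower of all genes. NQO1, a quinone reductase and a standard target of NRF2, read 483.4 and 461.2 in NC and 596.3 to 669.8 in lesioned atria (log2 0.38, SE 0.09). GPX4, which removes lipid peroxides, read 2502.5 and 2536 in NC and 2896.5 to 3261.3 in lesioned atria (log2 0.30, SE 0.09). PRDX6, a peroxiredoxin, was lower, at 4722.7 and 5945.3 in NC and 3886.8 to 4281.7 in lesioned atria (log2 -0.38, SE 0.12).

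Immediate early genes, which are switched on quickly by stretch and growth factors, had the second lowest median of the lists described, at -0.34 over 22 measured genes. Of these, 5 were higher and 17 lower, and 6 were lower without overlap, beside 5.82% of all genes: EGR1, FOS, FOSL2, ZFP36, DUSP6 and ATF3. The median was -0.34 in MR and -0.35 in MRV. EGR1, a zinc finger transcription factor, read 786.8 and 803.7 (NC), 407.2 and 604.8 (MR) and 517.4 and 481.7 (MRV) (log2 -0.66, SE 0.15). Its other probe sets gave -1.01 and -0.80, all without overlap.

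FOS, a subunit of the AP-1 factor, read 683.4 and 694.1 (NC), 160.5 and 574.5 (MR) and 584.9 and 263.1 (MRV). The controls were close together while lesioned animals of the same treatment were more than 2-fold apart (log2 -0.95, SE 0.51). FOSL2 (log2 -0.56, SE 0.15) and ZFP36, which destabilises cytokine mRNAs (-0.48, SE 0.16), had narrower spreads. DUSP6, a phosphatase of ERK, read 489.7 in NC1 but 199.8 in NC2, against 163.8 to 196.6 in lesioned atria. DUSP6 thus lay only just below NC2. The list's median against NC1 alone was -0.60 and against NC2 alone -0.13. The per-array median of the list, centred over arrays, was 0.42 in NC1, 0.03 in NC2, and -0.21 to 0.01 in lesioned atria, so much of the gap came from NC1.

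**Figure D2:**
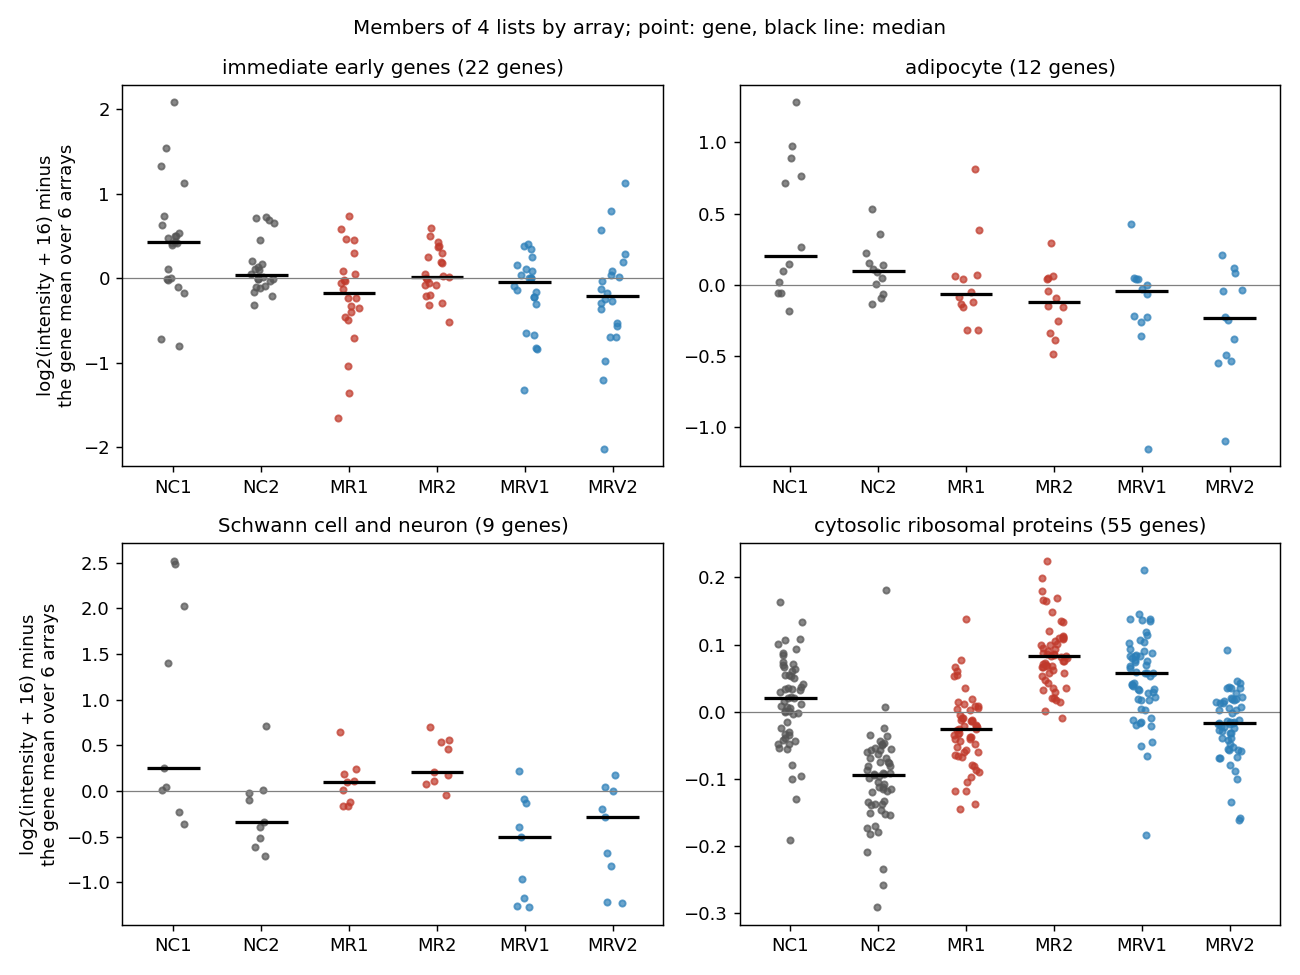
Centred log2 intensity of the genes of 4 lists on each array, with 1 animal per array. The values given here are the list medians. The immediate early list (22 genes) stands at 0.42 on NC1 and at 0.03 on NC2, the adipocyte list (12 genes) at 0.21 and 0.10 on the controls and below 0 on all 4 lesioned arrays, and the Schwann and neuron list (9 genes) is 0.25 on NC1 and -0.35 on NC2.

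THBS1, thrombospondin-1, a matrix glycoprotein that activates latent TGF-beta, read 822.8 and 745.6 (NC), 395.5 and 570.5 (MR) and 353.2 and 467.7 (MRV). All lesioned atria were lower (log2 -0.81, SE 0.19; -0.70 in MR and -0.92 in MRV). POSTN, periostin, a product of active fibroblasts, read 1932 and 2258.5 (NC), 1676 and 1409.6 (MR) and 461.8 and 1300.5 (MRV) (log2 -0.92, SE 0.49). These were the 2 members of the collagen and fibrous matrix list without overlap, beside 5.82% lower of all genes. The list as a whole had 10 higher and 11 lower of 21, a median of -0.02, and no stable side: 0.22 without NC1 and -0.32 without NC2.

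TGF-beta and fibroblast activation genes were as evenly split, with 8 higher and 10 lower of 18 and a median of -0.04. Without overlap, 1 was higher and 2 were lower, beside 4.23% and 5.82% of all genes. ID1, a target of BMP signalling, read 1184.4 and 977.2 in NC and 815.8 to 844.1 in lesioned atria, a range of only a few percent across the 4 lesioned animals (log2 -0.37, SE 0.10). ID3, its relative, was lower without overlap (log2 -0.22, SE 0.09). EDNRB, an endothelin receptor, was higher without overlap (log2 0.24, SE 0.10).

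Among genes higher in lesioned atria, 10 met the same rule of size, sign and separation, 1 of them (PLEK2) bright enough for testing only through its MR values. The size limit applied to the pooled difference. In MRV, NEBL (log2 0.45), PLEK2 (0.43), SULF2 (0.41), PPIP5K2 (0.38) and OCIAD2 (0.30) stayed below 0.5, as MYLIP did in MR (0.46). CCNG2, an atypical cyclin linked to exit from the cell cycle, had the smallest p. It read 212.3 and 226.7 (NC), 383.8 and 360 (MR) and 340.4 and 328.3 (MRV). The 4 lesioned values were close to each other and well above both controls (353 ± 24.3, SD, n = 4, against 220 ± 10.2, SD, n = 2; log2 0.65, SE 0.10, limma adjusted p = 0.809).

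NEBL, nebulette, a Z-disc protein of heart muscle, read 229 and 263.6 (NC), 449.7 and 480.9 (MR) and 354.5 and 330.7 (MRV). Both lesioned groups were above NC and MR was above MRV (log2 0.88 in MR and 0.45 in MRV; lesioned 0.67, SE 0.17). SERPINE2, protease nexin-1, read 677.9 and 647.5 in NC and 811.2 to 1252.2 in lesioned atria (log2 0.60, SE 0.17). ZNF232, a zinc finger protein, read 62 and 61.9 in NC, near the brightness limit for testing, and 92 to 108.8 in lesioned atria (log2 0.59, SE 0.10, limma adjusted p = 0.809).

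PPIP5K2, an inositol pyrophosphate kinase, read 335 and 338.6 (NC), 532.2 and 590.7 (MR) and 428.4 and 461.6 (MRV) (log2 0.55, SE 0.14). PLEK2, a pleckstrin family protein, read 25.8 and 27.1 (NC), 190.6 and 117.7 (MR) and 52.3 and 32.2 (MRV). Both NC and both MRV arrays were below the brightness limit of 61.4, so PLEK2 entered the test only because it was bright in MR, and its differences (log2 1.97 in MR and 0.43 in MRV) are a description. OCIAD2 (log2 0.54), MYLIP (0.51), LOC100522115 (1.12) and SULF2, a heparan sulfate editing enzyme (0.69), completed the 10. OCIAD2 differed by 0.78 in MR and 0.30 in MRV. SULF2 read 142.2 and 193 in NC, 502 on MR2 and 205.6 to 247.8 on the other lesioned arrays, so much of its difference came from MR2. Of the 13 cell cycle genes measured, 9 were higher and 4 lower, with a median of 0.03, and CCNG2 was the only one without overlap (beside 4.23% higher and 5.82% lower of all genes).

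For 5 of the 25 genes named by this rule in either direction (MSRB1, NEBL, PPIP5K2, OCIAD2 and PLEK2), MRV and MR differed at an unadjusted p below 0.05. Across all probe sets, 1048 did so (7.28%), and 0 passed the adjusted limma test (smallest adjusted p 0.317). For the other 20, a p above that limit does not show that valsartan left them alone.

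**Figure D3:**
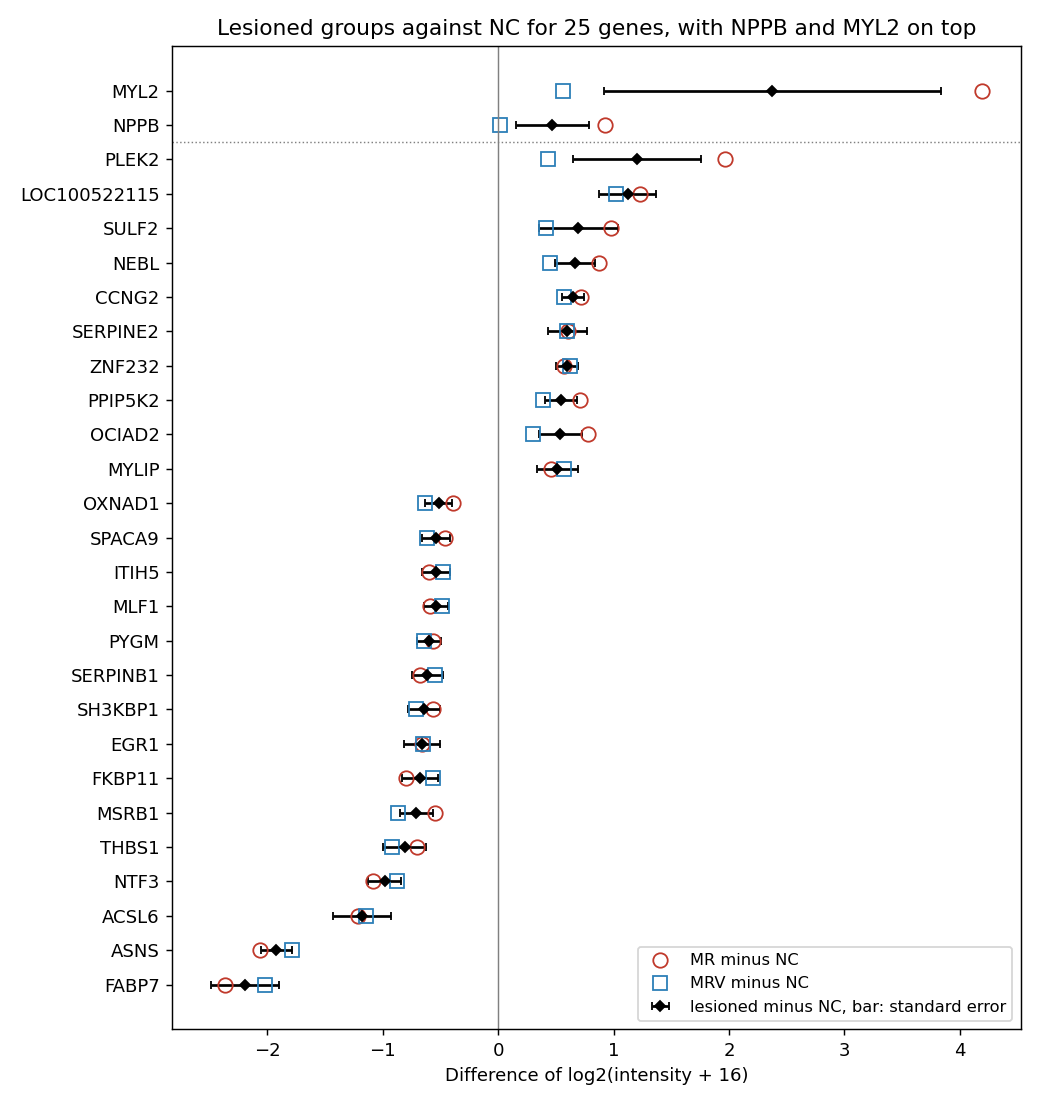
Log2 difference from NC for the 25 genes named by size and p, with NPPB and MYL2 added, 1 gene per row. Marks show all lesioned atria pooled (bar: standard error), MR and MRV, each against the same 2 NC arrays. ASNS stands at -2.06 in MR and -1.79 in MRV, and FABP7 at -2.37 and -2.02. NPPB stands at 0.92 in MR and 0.02 in MRV. PLEK2 was below the brightness limit of 61.4 in NC and MRV, so its place depends on dim values.

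For some genes the pooled difference stood for neither lesioned group, although no gene passed the adjusted limma test of MRV against MR. NPPB, the B-type natriuretic peptide released by stretched myocardium, read 4509.6 and 4095.1 (NC), 8080.7 and 8252.8 (MR) and 4075.7 and 4644.3 (MRV). The MRV values lay around the controls, and the pooled log2 difference was 0.47 (SE 0.32; 0.92 in MR, limma adjusted p = 0.640, and 0.02 in MRV). MRV minus MR was -0.91, with the smallest adjusted p of that comparison (limma adjusted p = 0.317). NPPA was higher in all 4 lesioned atria, but only by log2 0.08. It is among the brightest probe sets, the maximum of an array being 25779.8 (NC1) to 27167 (MRV2). Whether intensity still follows RNA amount at such readings was not tested.

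MYL2, the ventricular regulatory light chain, read 203 and 325.1 (NC), 10693.3 and 2318.4 (MR) and 151.5 and 954.3 (MRV). Its range among lesioned atria was wider than the gap to the controls (log2 2.38, SE 1.46; 4.19 in MR and 0.56 in MRV). As it is a ventricular gene, the other ventricular markers are given beside it. The other 6 measured had 3 higher and 3 lower, with a median of -0.10, and their summed intensity was 41148.4 and 37282.8 in NC and 36977.5 to 39399.2 in lesioned atria. MYL3, another light chain of ventricular and slow muscle, differed by log2 0.01. The part of ventricular tissue in the MYL2 values was not tested.

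The hypertrophy and stretch list had 9 higher and 11 lower of 20, with a median of -0.03 (0.14 in MR and -0.03 in MRV). Without overlap, 2 were higher and 1 was lower, beside 4.23% and 5.82% of all genes. Apart from NEBL and NPPA, XIRP1, a protein of the intercalated disc, was separated but lower: 1781.8 and 1915.2 (NC), 1428 and 1557.1 (MR) and 1090.3 and 1132.1 (MRV) (log2 -0.52, SE 0.16). XIRP2, its paralog, overlapped (log2 1.14, SE 0.56), with 466.7 in NC1 and 1586.8 in NC2. Sarcomere and Z-disc genes had 8 higher and 14 lower of 22 and a median of -0.02. MYH7 (log2 0.00), ATP2A2, the calcium pump of the sarcoplasmic reticulum (-0.01), and SLN (-0.22) were not separated.

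Ion channel and gap junction genes were few above the brightness limit, 11 of 15, with 6 higher and 5 lower and a median of 0.00. KCNE3, a potassium channel beta subunit, read 70.8 and 91.3 in NC and 100.7 to 146.4 in lesioned atria (log2 0.43, SE 0.16). KCNE1, a related subunit, read 264.3 and 317.9 (NC), 653 and 726.4 (MR) and 278.5 and 504.9 (MRV), so it overlapped only through MRV1. The atrial connexins had pooled log2 differences near 0 (GJA1 -0.01, GJA5 -0.15) made of opposite signs: GJA1 was -0.16 in MR and 0.14 in MRV, and GJA5 0.15 in MR and -0.46 in MRV, none past the test.

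In the renin-angiotensin-aldosterone list, 5 were higher and 7 lower of 12, with a median of -0.12. Of these, 1 was higher and 2 were lower without overlap, beside 4.23% and 5.82% of all genes. AGTR1, the angiotensin receptor that valsartan blocks, read 599 and 588.3 (NC), 352.1 and 518.2 (MR) and 468.8 and 414.3 (MRV). All lesioned atria, with or without the drug, were below both controls (log2 -0.44, SE 0.16; -0.46 in MR and -0.42 in MRV). Of the peptidases, NLN, neurolysin, was higher without overlap (log2 0.21, SE 0.08) and PREP, prolyl endopeptidase, lower without overlap (-0.21, SE 0.09). EDNRA, the endothelin A receptor, differed in MR (-0.62) and hardly in MRV (-0.03).

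Cytosolic ribosomal protein genes differed by little but mostly in the same direction. Of 55 measured, 53 were higher and 2 lower in lesioned atria, with a median of 0.07 (0.08 in MR and 0.06 in MRV), and 8 were higher without overlap. Over all genes 48.2% were higher and 4.23% were higher without overlap. None had an unadjusted p below 0.05, beside 0.943% higher and 2.27% lower of all genes. RPS12 read 6915.7 and 6734.6 in NC and 7340.9 to 8156.2 in lesioned atria (log2 0.18, SE 0.09), and RPL9 9303.5 and 9865.4 in NC and 10385.8 to 10733.7 in lesioned atria (log2 0.13, SE 0.08).

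The direction rested on NC2. Against NC1 alone, 28 of 55 ribosomal genes were higher, with a median of 0.00, and against NC2 alone 54 of 55, with a median of 0.12. A dim RPL23 probe set (251.9 and 302.3 in NC, 440.1 to 679.9 in lesioned atria, log2 0.95) was in the set separated in both lesioned groups, while the brightest RPL23 probe set gave 0.04.

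Protein folding and breakdown genes leaned lower by small amounts. Of 25 heat shock genes, 6 were higher and 19 lower, 4 of the latter without overlap (beside 5.82% of all genes), with a median of -0.03 (-0.03 in MR and -0.11 in MRV). HSPB8, a small heat shock protein of muscle autophagy, read 2871.9 and 2705.1 in NC and 2184 to 2407.9 in lesioned atria (log2 -0.28, SE 0.09). HSPB1 (log2 -0.29, SE 0.12) and DNAJB1 (-0.24, SE 0.09) were also separated.

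Proteasome and muscle ubiquitin ligase genes had 9 higher and 22 lower of 31, 5 lower without overlap (beside 5.82% of all genes), and a median of -0.05. PSMB3, a core proteasome subunit, read 321.7 and 191.1 (NC), 82.2 and 90.9 (MR) and 84.1 and 180.4 (MRV), so MRV2 lay just below NC2 (log2 -1.14, SE 0.33). PSMD14, a deubiquitinase of the proteasome lid, was lower by far less (log2 -0.21, SE 0.09). Endoplasmic reticulum chaperones and unfolded protein response genes had 6 higher and 13 lower of 19, and a median of -0.02. FKBP11, an isomerase of the secretory pathway, read 721.8 and 939.3 in NC and 422.8 to 563.4 in lesioned atria (log2 -0.68, SE 0.16).

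**Figure D4:**
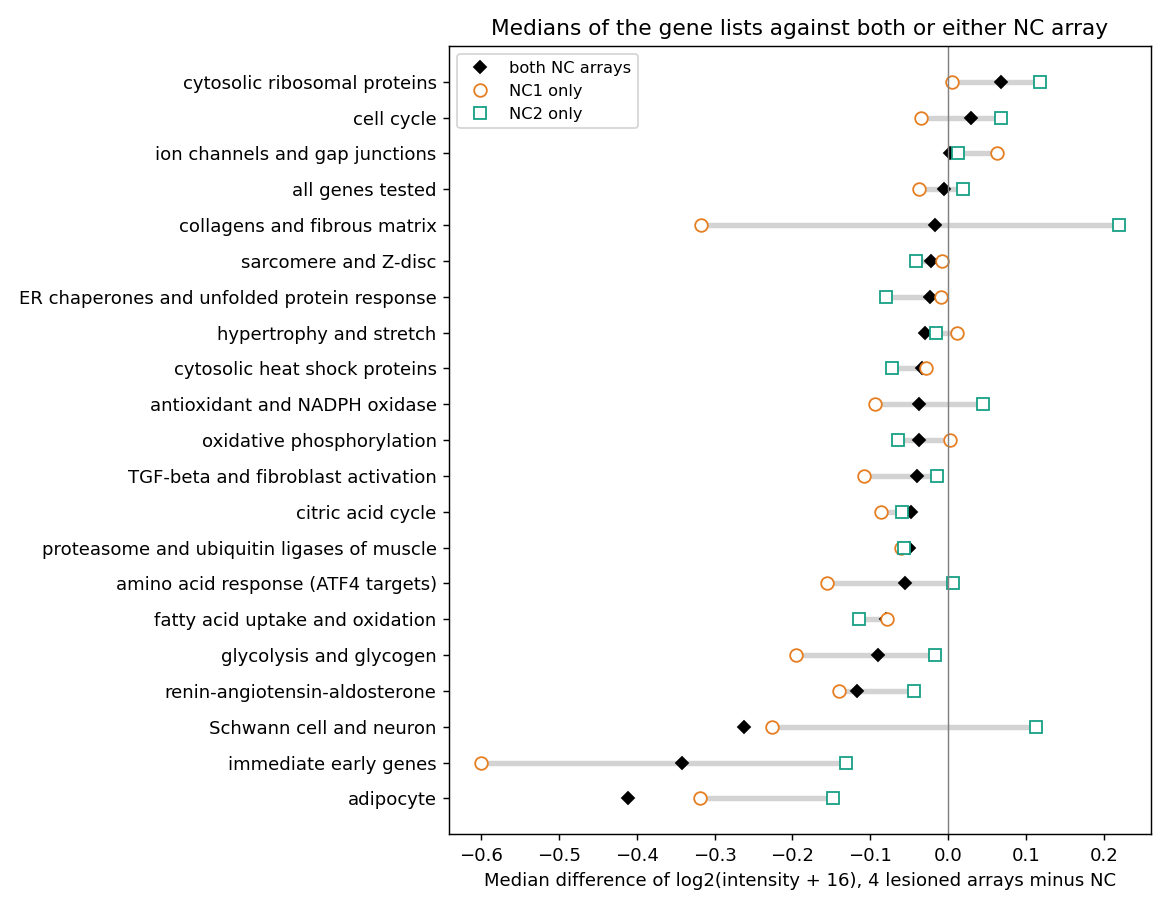
Median log2 difference, lesioned minus NC, of the 20 gene lists described and of all genes tested, against both controls, against NC1 alone and against NC2 alone. The adipocyte (-0.41) and immediate early (-0.34) lists are the lowest against both controls, and the ribosomal list reads 0.07 against both, 0.00 against NC1 and 0.12 against NC2.

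Adipocyte markers had the lowest median of the lists described. Of 12 measured, 1 was higher and 11 lower in lesioned atria, with a median of -0.41 (-0.26 in MR and -0.51 in MRV). The median was -0.15 without NC1 and -0.32 without NC2. Summed intensity of the list was 8100.7 in NC1, 6657.3 in NC2 and 5070.2 to 6773.9 in lesioned atria, so the sums overlapped. CIDEA, a lipid droplet protein, was the 1 member without overlap (beside 5.82% lower of all genes), at 174.7 and 84.2 in NC and 52.9 to 83.8 in lesioned atria (log2 -0.77, SE 0.27).

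DGAT2, which makes triglyceride, read 324.2 in NC1 and 111.5 in NC2, and 90.7 to 112.4 in lesioned atria. SCD, a desaturase, read 653 and 323 in NC and 233.8 to 355.5 in lesioned atria. Both were thus high on NC1 and overlapped at NC2. The part of fat content of the samples in the fatty acid genes above was not tested.

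Several other separated genes were lower in both MR and MRV. SH3KBP1, an adaptor of receptor endocytosis, read 270.7 and 304.1 in NC and 162.5 to 218.8 in lesioned atria (log2 -0.64, SE 0.14), while its other probe set gave -0.13. SERPINB1, an inhibitor of neutrophil proteases, read 405.2 and 300.1 in NC and 208.6 to 236.1 in lesioned atria (log2 -0.61, SE 0.13). MLF1 (log2 -0.54), ITIH5 (-0.54), SPACA9 (-0.54) and OXNAD1 (-0.51) were the remaining genes of the 15 named by p among those lower. JARID2, a partner of the Polycomb repressive complex, read 974.3 and 1234.3 in NC and 512.2 to 828.6 in lesioned atria (log2 -0.78, SE 0.23). ANTXR2, a receptor for collagen type VI and anthrax toxin, read 635.8 to 952.1 in lesioned atria against 1070.2 and 1313.1 in NC (log2 -0.66, SE 0.18). FKBP5, a co-chaperone induced by glucocorticoids, read 1045.1 and 1094.8 (NC), 531.3 and 947.5 (MR) and 589.4 and 957 (MRV). Its log2 difference of -0.54 (SE 0.27) came mostly from 1 low animal in each lesioned group, and another probe set gave -0.24 with overlap.

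For a further group NC1 stood well above NC2, and NC2 lay closer to the lesioned atria. EGFR, the epidermal growth factor receptor, read 349.4 and 199.7 in NC and 154.4 to 199.3 in lesioned atria, but on its other probe set NC1 (182.9) was below NC2 (247.8) and overlapped the lesioned atria (141.1 to 199.8; log2 -0.22). PROCR, the endothelial protein C receptor, read 2398.3 and 1184.3 in NC and 732.5 to 1136.7 in lesioned atria. TPPP3, a tubulin binding protein, read 528.8 and 280.9 in NC and 177.2 to 214.3 in lesioned atria. ABRA, an actin-binding activator of serum response factor in striated muscle, read 1636.2 and 945.7 (NC), 777.1 and 807.7 (MR) and 531 and 399.6 (MRV). For these genes the size of the difference changes with the control used.

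For 4 genes the separated probe set was a dimmer one that the brightest probe set did not match: besides RPL23, these were HK3 (log2 -0.67 against 0.01), KIAA0907 (-0.84 against 0.05) and TPM2 (-0.81 against -0.27). Of the 1361 probe sets without overlap, 688 carried 1 symbol. Of probe sets with no symbol, the higher one with the smallest p read 93.5 and 86.7 (NC), 236 and 228.1 (MR) and 336.5 and 410.3 (MRV) (log2 1.55, SE 0.24, limma adjusted p = 0.809). Of the 2 lower ones with the smallest p, the one further from NC read 507.7 and 414 in NC and 201 to 269.1 in lesioned atria (log2 -1.02, SE 0.15, limma adjusted p = 0.809).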

How the data were processed

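Total RNA of left atria was read on a porcine Affymetrix array. The deposited values are linear intensities, which the authors made from the scans; MAS5 and RMA both appear, with no version, in the submitters' processing notes. Which of the pair was used for these values was not given in the sources used here. Of 23999 probe sets, 10069 carried 1 gene symbol in the platform annotation, 198 several and 13732 none; 9961 symbols matched the RefSeq table (Sscrofa11.1), with 0 changed. No coordinates or sequences are given.

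The authors' intensities were taken as log2(intensity + 16). The 124 control probe sets and those whose mean intensity was below the 40th percentile (61.4) were left out, and limma 3.58.1 in R 4.3.3 (lmFit, eBayes) compared 4 lesioned with 2 NC arrays (4 residual degrees of freedom), with Benjamini-Hochberg adjustment over 14400 probe sets and a threshold of 0.05. A fit with 3 group means (3 residual degrees of freedom) gave MR, MRV and their difference; MR and MRV against NC share the NC arrays. Gene values come from the brightest of a gene's probe sets (5408 genes). No overlap means that all 4 lesioned arrays lay on one side of both NC arrays. The fits were tested on simulated data with independent noise on each array, which does not imitate an array-wide difference such as that of NC1. Arrays carry no read depth, so the number of arrays limits the precision.

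Named genes were those called, then up to 15 in each direction ranked by p, where the log2 difference was 0.5 or more in size, with the same sign in MR and MRV and no overlap, up to 4 per list described, and 11 others. The genes, the 43 gene lists, the 20 lists described and the set separated in both MR and MRV were chosen with earlier results of these data known. Of the other 23 lists, 15 had at least 5 tested genes, with medians from -0.10 to 0.08 and 0 genes called by limma; epicardial, neutrophil and mast cell markers had no tested gene. Alternatives were other pseudocounts (1 and 64), no filter, quantile normalization, 3 group means, an intensity trend, a replicate block, the actin ratio or 28S signal as a covariate, all of a gene's probe sets, and leaving out each array.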

Additional observations from a re-analysis of the deposited data

Results flagged for a closer look

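Within the 4 lesioned arrays, 9 of 118 named genes (7.63%) had 1 array far from the other 3, by the gap to its nearest neighbour as a share of the whole range (above Dixon's 95% limit for that ratio). Chance alone marks about 1 group in 20 this way. In MR1 these were SH3KBP1 (0.842), which read 218.8 there and 162.5 to 170.4 on the other arrays, HADHB (0.853), at 7065.5 against 5765.7 to 5940.1, and IDH3B (0.840), at 327.8 against 300.6 to 304.8. In MR2 they were GPI (0.914), at 4068.8 against 4235.8 to 4251.9, NQO1 (0.901), at 669.8 against 596.3 to 603.2, and ATP2A2 (0.947). In MRV1 they were HSPB1 (0.939), at 6729.8 against 5419.2 to 5491.8, and HK3 (0.928, brightest probe set). In MRV2 it was PSMB3 (0.878), at 180.4 against 82.2 to 90.9.

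For none of the 118 named genes did MRV and MR differ at an adjusted p below 0.05 by limma (smallest 0.317). At an unadjusted limma p below 0.05, 15 of the 118 did, beside 7.28% of all probe sets tested.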

How the results depend on the processing

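The 1 call, ASNS, remained with a pseudocount of 64 (adjusted p 0.0281), 3 group means (0.0306), an intensity trend (0.0437) and the 28S covariate (0.0398). The number of calls became 0 with a pseudocount of 1 (ASNS adjusted p 0.0501), without the filter (0.111), with quantile normalization (0.0769), with the actin ratio covariate (0.0861) and with the replicate number as a block (0.148), and was 0 to 1 when 1 array was left out; the 1, without NC2, was a probe set with no symbol (log2 2.65, adjusted p 0.0380). Deviations of same-numbered arrays correlated at 0.34 (NC and MR), 0.20 (NC and MRV) and 0.02 (MR and MRV). These values cannot decide whether arrays of the same replicate number share a batch or a pairing, which was not tested. The 19 probe sets 2-fold apart became 6 with a pseudocount of 64 and 25 to 289 when 1 array was left out, the most without NC2. The 86 separated in both lesioned groups became 62 to 107 under the other settings (chosen after seeing the data) and 101 to 760 with 1 array left out. The 1361 without overlap became 2309 without the filter and 1941 to 6559 with 1 array left out, where fewer arrays make separation easier. Only genes near 0 or resting on 1 array turned: GJA1 was 0.0022 with quantile normalization, MYH7 -0.0025 with the 28S covariate and HK3 -0.0040 with the actin ratio. With 1 array left out, the log2 difference ran from -0.11 to 0.080 for GJA1, -0.063 to 0.068 for HK3, -0.032 to 0.035 for MYH7, -0.60 to 0.039 for EDEM2, -0.093 to 0.69 for PSMD3, -2.98 to 0.029 for SNAP25, -1.65 to 0.14 for GAP43, -2.97 to 0.26 for STMN2, -0.39 to 0.012 for GJA5, -0.00066 to 0.097 for KIAA0907, -0.30 to 0.064 for ATP1B1, -0.23 to 0.063 for KCNJ5 and -0.019 to 0.024 for ATP2A2. The causes were not tested. With 2 controls that differ from each other, a difference seen against only 1 of them cannot be placed.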
